A study of Mus musculus with 39 samples.

Results

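Keratins and keratin-associated proteins were followed in kidney, liver, lung and skin of perforin-deficient mice. The members were all genes whose symbol is Krt followed by a digit, or Krtap. The table for skin listed 112 of them among 52508 genes, 55 keratins and 57 keratin-associated proteins, and the table for kidney, liver and lung listed 109 among 24537 genes. In all 114 members were in either table and 107 in both. Krt85 and Krtap15 were in the second table and were not analysed here in skin. Skin had counts for 108 members, of which 91 passed the filter on low counts and were tested. The other tissues had counts for 21 members in kidney, 8 in liver and 32 in lung, of which 7, 2 and 8 were tested.

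All mice were Prf1-/- on the C57BL/6 strain, that is, without perforin, the pore-forming protein that cytotoxic lymphocytes use to kill their targets, and no wild-type group was part of the series. Young mice were untreated and 3 months old. Old mice were 20 months old and had been given either vehicle or ABT-737, an inhibitor of the BCL-2 family of anti-apoptotic proteins, at 25 mg/kg, starting when they were 18 months old and repeated monthly over 2 months, on 2 days in a row each time. Vehicle and young mice thus differed both in age and in having been given vehicle, which cannot be told apart. The treatment labels of some ABT-737 libraries read ABT-738 or ABT-739, and all were taken as ABT-737 from their titles and the protocol. Vehicle and ABT-737 libraries carry the replicate numbers 3, 4 and 5 in every tissue, and young libraries the numbers 1 to 3 in skin and 1 to 4 elsewhere. The series calls them biological replicates and does not say which libraries came from the same mouse. The RNA was read from its 3′ end in bulk tissue, so fewer cells of a type and less RNA per cell cannot be told apart.

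Libraries held 1493411 to 3842808 counts in skin, 1431814 to 3513311 in kidney, 1046508 to 2600092 in lung and 223957 to 891116 in liver. Values are given as CPM, a gene's counts relative to the library total after TMM scaling (a correction for unequal library composition), as log2 fold changes with their SE, and with p-values from edgeR's quasi-likelihood test adjusted over all genes tested in a tissue. A gene was called at an adjusted p under 0.05. Markers of each labelled tissue were present: those of skin took 0.2301% to 0.8122% of the counts in skin. Skin also held skeletal muscle markers at a summed 12220 to 114500 CPM, with all 3 young libraries at 80020 or more and vehicle 5 lowest.

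Keratins are the intermediate filament proteins of epithelia and work as pairs of an acidic type I and a basic type II chain. Krt5 and Krt14 mark the basal layer of the epidermis, Krt1 and Krt10 the layers above it, and Krt6a, Krt6b, Krt16 and Krt17 the follicle and epidermis after injury, while Krt8, Krt18, Krt7 and Krt19 belong to single-layered epithelia such as ducts, hepatocytes and airways. The growing hair follicle makes further sets: the inner root sheath keratins such as Krt25, Krt27 and Krt71, which mould the hair, and the hair shaft keratins such as Krt31, Krt81, Krt83 and Krt86, which are cross-linked by keratin-associated proteins, small proteins rich in cysteine or in glycine and tyrosine. Follicles make these last sets during anagen, the growth phase of the hair cycle, and rest without them in telogen. The labels give no hair-cycle phase.

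Members sat in few clusters. Of the 55 keratins in the skin table, 27 lay on chromosome 11 within 1.04 Mb and 27 on chromosome 15 within 0.686 Mb. The keratin-associated proteins lay mainly on chromosome 16, with 24 genes, and chromosome 11, with 23. Between members, 6 of 112 shared an exact stretch of 50 bases within the last 300 bases of their transcripts, the widest share being that of Krt8-ps, a pseudogene listed at 0 here, and the next that of Krt33a with Krt34, over 21.5% of its stretches. Counts of Krt33a and Krt34, and of Krtap1-4 and Krtap9-3, could therefore be split between them in part.

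Promoter stretches of hair members and of an epidermal keratin are shown first, for the groups whose levels in skin are compared below. RefSeq start sites on GRCm38.p6 gave 88 windows for 87 members. In the 250 bases before the start, the letters TATAAA, searched on both strands, were found in 58 of these 88 windows (65.9%) and in 12.4% of all 32851 windows. They were in 7 of 7 windows of inner root sheath keratins, 41 of 50 of keratin-associated proteins and 6 of 9 of hair shaft keratins, but in 1 of 7 of basal and suprabasal epidermal keratins. The letters CTTTGAA, as bound by Lef and Tcf factors, were in 5 of 9 hair shaft windows, 6 of 50 of keratin-associated proteins, 0 of 7 of inner root sheath keratins and 4.46% of all windows. The other form searched, CTTTGAT, was in 0 of 9, 3 of 50 and 0 of 7 of these windows and in 3.21% of all. The letters GGGCGG, a GC box, were in 2 of the 88 windows and in 32.7% of all. A match of letters describes the window and is not a site of binding. Each line gives the 100 bases from 120 to 21 before the start site, 5′ to 3′ on the minus strand where all 6 genes lie, with TATAAA in capitals. They are Krt71 (chr15:101743118-101743217) and Krt25 (chr11:99322972-99323071) of the inner root sheath, Krt31 (chr11:100050572-100050671) of the hair shaft, Krtap8-1 (chr16:89487973-89488072) and Krtap4-7 (chr11:99644110-99644209), and Krt5 (chr15:101712926-101713025) of the basal epidermis, whose stretch has no TATAAA. The genes printed were chosen after their values were seen.
Krt71: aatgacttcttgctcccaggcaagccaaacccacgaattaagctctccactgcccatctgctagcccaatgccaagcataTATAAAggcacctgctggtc
Krt25: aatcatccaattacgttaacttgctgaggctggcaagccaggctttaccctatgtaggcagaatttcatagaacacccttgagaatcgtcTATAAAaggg
Krt31: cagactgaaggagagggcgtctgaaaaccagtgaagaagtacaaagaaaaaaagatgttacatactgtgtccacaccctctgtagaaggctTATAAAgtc
Krtap8-1: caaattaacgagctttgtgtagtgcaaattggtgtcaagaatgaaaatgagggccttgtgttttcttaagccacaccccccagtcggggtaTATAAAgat
Krtap4-7: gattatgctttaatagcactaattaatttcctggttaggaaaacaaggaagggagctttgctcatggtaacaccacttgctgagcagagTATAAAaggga
Krt5: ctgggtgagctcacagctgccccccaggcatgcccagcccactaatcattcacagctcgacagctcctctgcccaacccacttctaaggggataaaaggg
In the 5 hair members the capitals begin between 40 and 29 bases before the start.

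In skin, the levels of the hair members differed widely between libraries and did not follow the treatment groups. The 8 inner root sheath keratins, 15 hair shaft keratins and 49 keratin-associated proteins tested, with the untested members of these groups, summed to 529.6, 80.56 and 99.16 CPM in young 1, 2 and 3. In vehicle 3, 4 and 5 the sum was 20010, 142.7 and 1700 CPM, and in ABT-737 3, 4 and 5 it was 135.4, 52580 and 58220 CPM. Vehicle 3, ABT-737 4 and ABT-737 5 thus stood far above the others, vehicle 5 lay between, and vehicle 4 and ABT-737 3 were within the range of the young libraries. Hair members made up 48.96%, 77% and 73.37% of all member CPM in the 3 high libraries and 3.132% or less in the other 6. The same 3 libraries were above the other 6 in 73 of the 91 members tested: all 8 inner root sheath keratins, all 49 keratin-associated proteins, 14 of 15 hair shaft keratins, Krt17 and Krt18. Of all 14224 genes tested in skin, 7.12% had that order, which was chosen after the values were seen and has no test. Hair members at few counts in the other 6 libraries could pass the filter on low counts only through vehicle 3, ABT-737 4 and ABT-737 5. The counts of members with that order are therefore set in part by the filter.

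**Figure D1:**
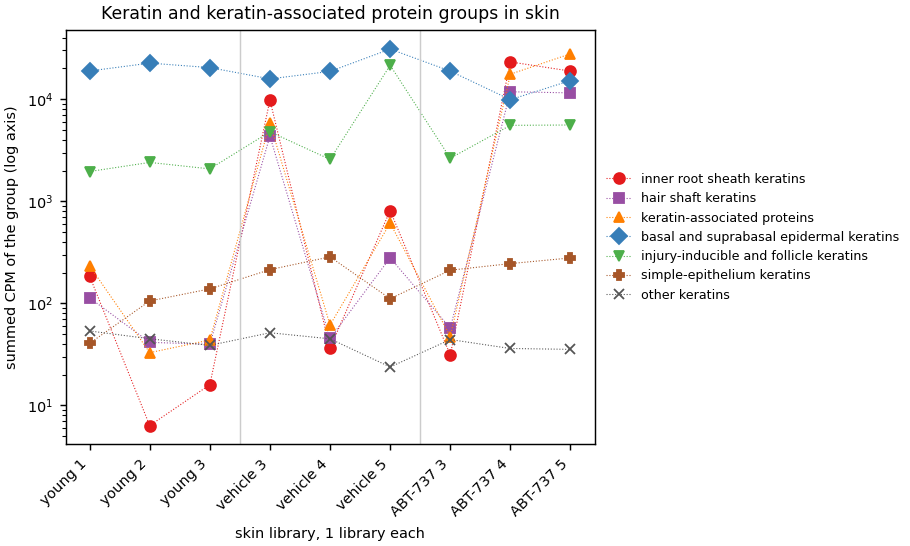
Summed CPM of each member group in the 9 skin libraries, on a log axis, 1 point a library and a dotted line a group. Inner root sheath keratins, hair shaft keratins and keratin-associated proteins reach 4346 to 27840 CPM in vehicle 3, ABT-737 4 and ABT-737 5, and the injury-inducible and follicle keratins are highest in vehicle 5, at 21480 CPM.

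Genes of the hair matrix and inner root sheath that are not keratins, fixed as a list, followed the same libraries. They summed to 6488 CPM in vehicle 3, 14480 in ABT-737 4 and 13450 in ABT-737 5, to 905.4 in vehicle 5 and to 362 to 421.8 in the other 5. Among them Tchh, which encodes trichohyalin, a matrix protein of the inner root sheath, was at 2343, 5927 and 5634 CPM in these 3 libraries, at 253.8 in vehicle 5 and at 5.179 to 43.41 in the others. Melanocyte pigment genes, which serve the pigment of growing hair, summed to 319, 753.3 and 345.3 CPM in the 3 libraries, to 58.76 in vehicle 5 and to 13.02 to 33.1 elsewhere. Proliferation genes summed to 335.7, 604.8 and 412.6 CPM there, to 389 in vehicle 5 and to 130.6 to 180.1 in the others. Genes of follicle stem cells and telogen did not part the same way, with 654.3, 727.4 and 736 CPM in the 3 libraries and 393.4 to 935.6 in the others. Skeletal muscle markers were at 44890, 22420 and 19910 CPM in the 3 libraries and at 12220 in vehicle 5, against 55930 to 114500 elsewhere. The part of the hair cycle, of muscle content and of the other lists in the differences between groups was not tested.

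**Figure D2:**
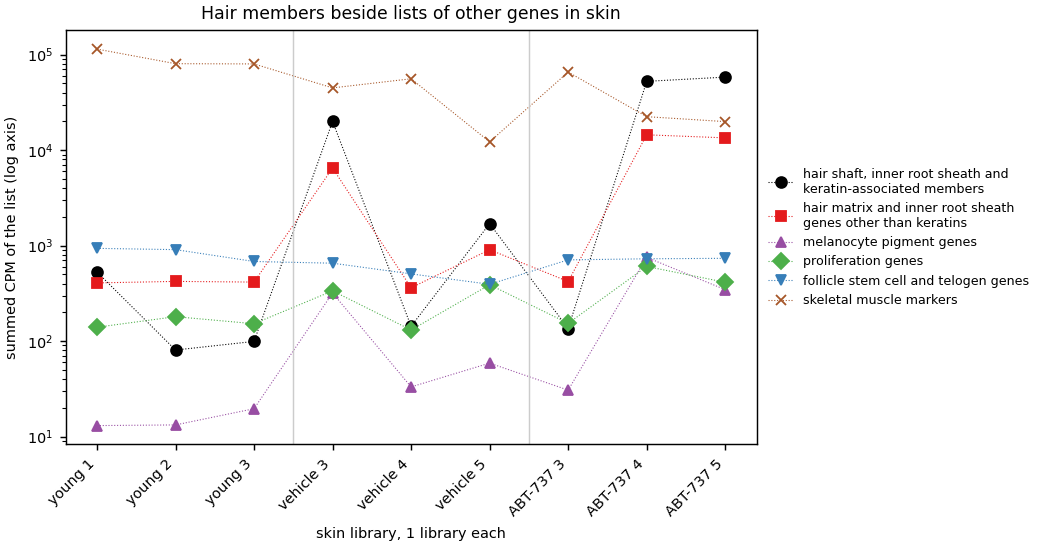
Summed CPM of the hair members and of 5 lists of other genes in the 9 skin libraries, on a log axis, 1 point a library. The hair matrix list and the melanocyte list are high in the same 3 libraries as the hair members, with vehicle 5 next, while follicle stem cell and telogen genes stay between 393.4 and 935.6 CPM.

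Inner root sheath keratins showed these levels gene by gene. Krt71, a type II keratin of the sheath (chr15:101731950-101743109 in the files, mm10, minus strand), was at 74.53, 1.726 and 6.368 CPM in young 1 to 3, 3739, 15.30 and 318.9 in vehicle 3 to 5, and 10.64, 8723 and 6874 in ABT-737 3 to 5. All 3 groups overlapped, with 1 high vehicle library and 2 high ABT-737 libraries. The mean of Krt71 was 27.54 ± 40.76 CPM (SD, n = 3) in young, 1358 ± 2068 in vehicle and 5203 ± 4590 in ABT-737. Its log2 fold change was 5.65 (SE 2.40, adjusted p = 0.142) for vehicle against young, 7.59 (SE 2.61, adjusted p = 0.0980) for ABT-737 against young and 1.94 (SE 2.01, adjusted p = 0.857) for ABT-737 against vehicle, all by edgeR. Krt25, its type I partner in the sheath, was at 49.2, 1.151 and 3.184 CPM in young, 2679, 5.695 and 206.4 in vehicle and 6.746, 5833 and 4487 in ABT-737. Krt27, another type I chain of the sheath, was at 28.94, 1.151 and 2.729 CPM in young, 1694, 5.695 and 164.4 in vehicle and 4.67, 4124 and 3643 in ABT-737. Both had the order of libraries seen for Krt71. Young 1 was the highest of the young libraries in these 3 genes, and the sheath keratins summed to 184.5 CPM there against 6.33 and 15.92.

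Hair shaft keratins repeated the pattern. Krt83 was at 12.3, 0.5754 and 2.274 CPM in young, 693, 2.847 and 50.49 in vehicle and 1.297, 2142 and 1785 in ABT-737. Krt81 was at 15.19, 0 and 0.9097 CPM in young, 611.7, 2.135 and 40.0 in vehicle and 1.557, 1695 and 1649 in ABT-737. Krt86 was at 14.47, 0 and 0.4548 CPM in young, 340.5, 1.068 and 33.93 in vehicle and 1.816, 1282 and 1600 in ABT-737. All 3 are type II chains of the hair shaft, and in none did any pair of groups separate. Krt31, a type I chain of the shaft whose promoter stretch is printed above, was at 9.406, 0 and 0.9097 CPM in young, 582.7, 1.068 and 24.83 in vehicle and 2.595, 1429 and 1012 in ABT-737. For Krt83 the log2 fold change was 2.40 for ABT-737 against vehicle (adjusted p = 0.797), 5.70 for vehicle against young (adjusted p = 0.136) and 8.10 for ABT-737 against young (adjusted p = 0.0855) by edgeR. Krt82, a keratin of the hair cuticle, had 0 counts in each young library, which allows up to 3 counts a library. It had 191, 1 and 12 counts in vehicle and 0, 276 and 290 in ABT-737, so its vehicle mean was at least 16.65-fold above the young floor and its ABT-737 mean at least 37.34-fold, with 1 vehicle and 1 ABT-737 library themselves at or under the floor. Krt84 was the exception among hair shaft keratins: it had 13, 8 and 14 counts in young, 20, 2 and 18 in vehicle and 3, 103 and 165 in ABT-737, and in CPM vehicle 3 lay within the young range.

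Keratin-associated proteins gave the widest set with the same order. Krtap8-1, of the class rich in glycine and tyrosine, was at 31.84, 1.151 and 3.184 CPM in young, 859.9, 1.068 and 64.56 in vehicle and 3.373, 2424 and 3223 in ABT-737. Krtap7-1, of the same class, was at 20.26, 0.5754 and 1.819 CPM in young, 624, 2.847 and 54.07 in vehicle and 1.816, 2132 and 2182 in ABT-737. Krtap3-1, of a cysteine-rich class, was at 6.512, 1.726 and 0.9097 CPM in young, 233.3, 1.424 and 31.45 in vehicle and 0.2595, 839.8 and 1450 in ABT-737. In each of the 3, vehicle 4 and ABT-737 3 were no higher than the highest young library. The log2 fold change of Krtap8-1 was 2.61 for ABT-737 against vehicle (adjusted p = 0.793), 4.73 for vehicle against young (adjusted p = 0.198) and 7.34 for ABT-737 against young (adjusted p = 0.105) by edgeR. Counts of 0 in all young libraries were found for Krtap12-1, with 139, 1 and 8 counts in vehicle and 0, 325 and 408 in ABT-737. Krtap16-1 was alike, with 99, 1 and 16 counts in vehicle and 0, 322 and 375 in ABT-737, as was Krtap26-1, with 75, 0 and 7 counts in vehicle and 2, 263 and 353 in ABT-737. In all 3, vehicle 4 and ABT-737 3 were at or under the floor of 3 counts.

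The clusters of keratin-associated proteins moved by library in the same way. The genes on chromosome 16 summed to 123.0, 4.603 and 10.01 CPM in young, 3151, 14.95 and 296.6 in vehicle and 15.05, 10130 and 14720 in ABT-737. Those on chromosome 11 summed to 99.13, 27.05 and 32.29 CPM in young, 2084, 43.06 and 273.4 in vehicle and 28.02, 6334 and 11780 in ABT-737. In both clusters the 3 high libraries were the same, and ABT-737 5 was the highest. Krtap4-7 of the chromosome 11 cluster, printed above, was at 7.959, 0.5754 and 0.9097 CPM in young, 114.2, 0.3559 and 22.35 in vehicle and 0.2595, 375.3 and 871.3 in ABT-737. Hair members were not at 0 in every low library: Krt32, a type I keratin of the hair cuticle, was at 6.069 to 41.51 CPM and Krtap3-2 at 18.09 to 34.76 CPM in the 6 libraries other than vehicle 3, ABT-737 4 and ABT-737 5. In the 3 high libraries they were at 80.85, 111.2 and 89.59 CPM and at 200.4, 533.1 and 947.4 CPM. Krt31, Krtap4-7, Krt32 and Krtap3-2 are outside the rule for named genes and were chosen after their values were seen.

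**Figure D3:**
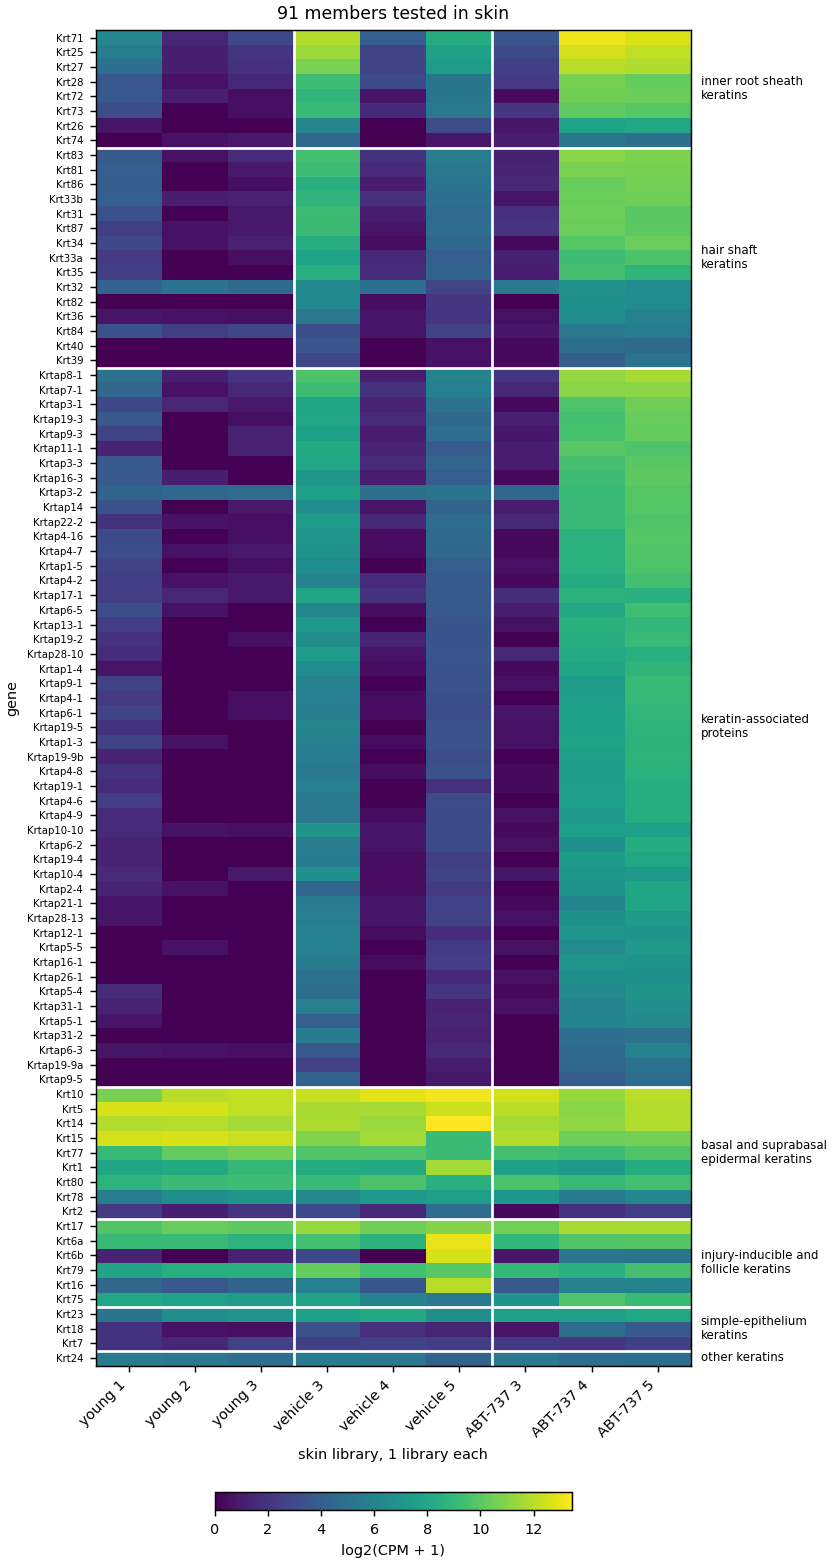
Level of each of the 91 members tested in skin, as log2(CPM + 1) in colour, with genes in rows by member group and the 9 libraries in columns. The hair members in the upper 3 blocks are bright in vehicle 3, ABT-737 4 and ABT-737 5, and Krt6a, Krt6b, Krt16, Krt1 and Krt14 are brightest in vehicle 5.

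The 3 high libraries were not alike in the balance of sheath and shaft. Keratin-associated proteins summed to 0.5972 of the inner root sheath keratins in vehicle 3, 0.7583 in ABT-737 4 and 1.478 in ABT-737 5. Of the 49 keratin-associated proteins tested, 44 were highest in ABT-737 5, while 7 of 8 inner root sheath keratins were highest in ABT-737 4. The median ratio of ABT-737 5 to ABT-737 4 was 1.747 over keratin-associated proteins, 0.8535 over hair shaft keratins and 0.8272 over inner root sheath keratins. Against vehicle 3, ABT-737 5 was a median 5.48 times higher over keratin-associated proteins (0.707 to 12.58), 2.576 times over hair shaft keratins and 1.926 times over inner root sheath keratins. These are ratios between single libraries, with no test.

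Counted over members, none of the 91 was called between ABT-737 and vehicle by edgeR, as none of the 14224 genes tested was (0%). At an unadjusted p under 0.05 there were 10 members, against 7.97% of all genes, and DESeq2 called 0 members. Vehicle and young differed in 1 member by edgeR, Krt79, against 11.2% of all genes called, with 27 members at an unadjusted p under 0.05 against 31.8% of all genes. ABT-737 and young differed in 0 members, against 5.17% of all genes called, with 76 of 91 members at an unadjusted p under 0.05 against 30% of all genes. DESeq2 called 22 members between vehicle and young, against 18.7% of all genes, and 58 between ABT-737 and young, against 14.9%. Without ABT-737 3, edgeR called 73 of the 92 members then tested between ABT-737 and young, against 19.6% of all genes. Between vehicle and young, edgeR called 11 members without ABT-737 3 (16.8% of all genes), 4 without vehicle 4 (8.99%) and 2 without vehicle 3 (7.7%). With all skin libraries in the fit, hair members at few counts elsewhere could be tested only through vehicle 3, ABT-737 4 and ABT-737 5. The counts and shares of members in these comparisons are therefore set in part by the filter. Members that moved together across libraries are not separate evidence.

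By group, the medians of the log2 fold change described the same spread. For ABT-737 against vehicle the median was 2.36 over hair shaft keratins, 2.0 over inner root sheath keratins and 2.94 over keratin-associated proteins, with every member of the 3 groups higher, against 0.04 over all genes tested. Members at few counts elsewhere could pass the filter only through vehicle 3, ABT-737 4 and ABT-737 5. The shared direction is therefore set in part by the filter. For vehicle against young the median was 5.45, 5.72 and 4.96, against 0.05 over all genes. Setting the 4, 2 and 24 members at or under the floor in young to their lower bounds gave 4.78, 5.64 and 3.61. For ABT-737 against young it was 8.10, 7.83 and 7.78, against 0.10 over all genes, and 7.72, 7.70 and 6.93 with those bounds. Without vehicle 3, ABT-737 4 and ABT-737 5, an alternative chosen after seeing the data, the ABT-737 against vehicle medians of these 3 groups were -3.27, -3.99 and -3.38. In that alternative ABT-737 is a single library, which is assumed to vary like the other groups. The vehicle against young medians were then 2.07, 2.67 and 2.04. Few members separated the groups: 7 were higher in every vehicle library than in every young one (19.5% of all genes were) and 1 lower, Krt15 (20.1%), and 8 were higher in every ABT-737 library than in every young one (18.7%) and 2 lower, Krt15 and Krt5 (17.7%). None separated ABT-737 from vehicle, against 11.6% of all genes.

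Among the keratins of injury and of the follicle outside the hair shaft, Krt6a, Krt6b and Krt16 rested on another library. Krt6a, made in the follicle and induced in wounded epidermis, was at 553.5, 549 and 404.8 CPM in young, 696, 397.5 and 8120 in vehicle and 467.3, 884.5 and 911.2 in ABT-737. Krt6b, its close relative, was at 1.447, 0 and 1.364 CPM in young, 6.591, 0 and 6230 in vehicle and 0.7784, 39.17 and 35.66 in ABT-737. Krt16, the type I partner of the Krt6 chains, was at 20.26, 12.08 and 19.1 CPM in young, 55.37, 11.03 and 4126 in vehicle and 11.94, 56.41 and 66.43 in ABT-737. Vehicle 5 stood alone in all 3: they summed to 18480 CPM there and to 408.5 to 1013 in the other 8 libraries. Between ABT-737 and vehicle the log2 fold change was -2.03 for Krt6a (adjusted p = 0.640), -6.37 for Krt6b (adjusted p = 0.597) and -4.96 for Krt16 (adjusted p = 0.539) by edgeR, and between vehicle and young it was 6.35 (SE 1.92, adjusted p = 0.0604) for Krt16. Krt6b was at or under the floor of 3 counts in young. Its vehicle mean was at least 1185-fold above that floor, a bound that rests on vehicle 5 alone.

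Vehicle 5 was also high in the cornified envelope, the cross-linked shell of the outermost epidermis, whose genes summed to 16450 CPM against 2100 to 8757 in the other 8 libraries. Krt1 was at 3091 CPM in vehicle 5 against 146.9 to 487.6 elsewhere, and Krt14 at 11070 against 2386 to 3930. Leukocyte markers summed to 2978 CPM in vehicle 5, near the 3029 of vehicle 4 and the 2035 of vehicle 3, against 263.4 to 1432 in the young and ABT-737 libraries. Of the lists between vehicle and young, 6 of 6 leukocyte markers and 6 of 15 cornified envelope genes were called higher by edgeR, against 5.84% of all genes. The part of inflammation or wounding in the levels of vehicle 5 was not tested.

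**Figure D4:**
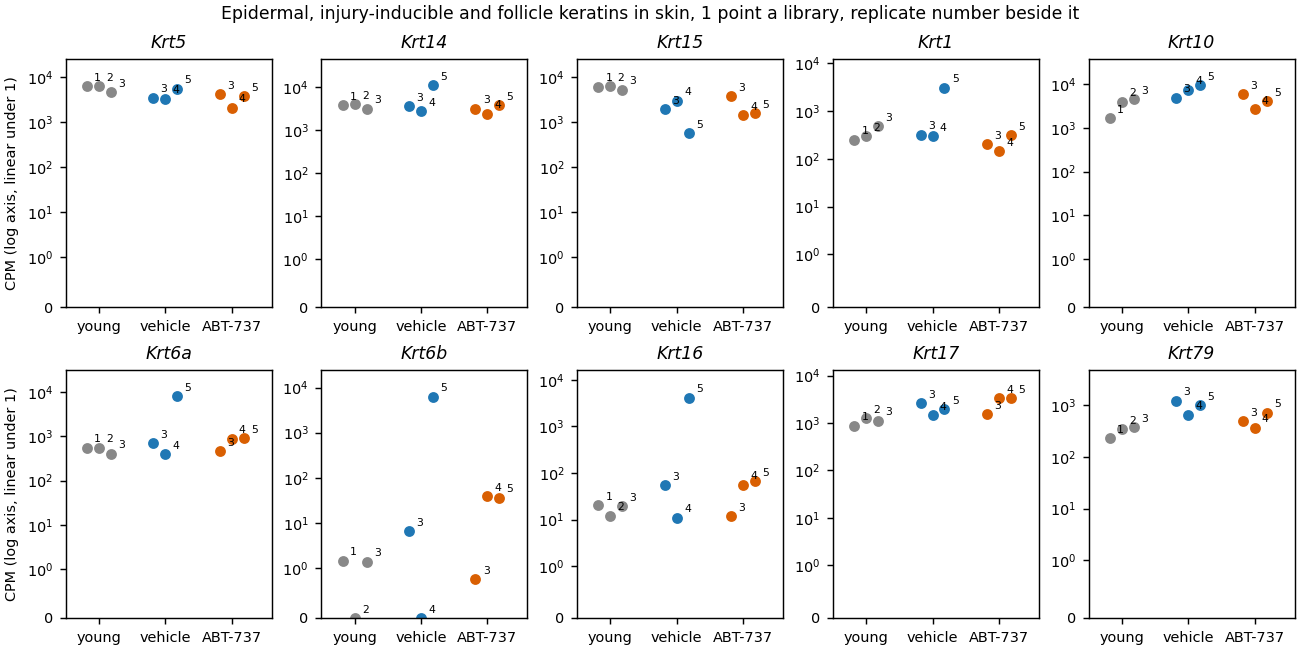
CPM of 10 epidermal, injury-inducible and follicle keratins in skin, 1 point a library with its replicate number, on a log axis that is linear under 1. Vehicle 5 is the highest library for Krt6a, Krt6b, Krt16, Krt1, Krt10 and Krt14 and the lowest for Krt15, and the 3 vehicle points of Krt79 are above the 3 young points.

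Krt79, a keratin of the sebaceous duct and upper follicle, was the 1 member called between young and vehicle skin by edgeR. It was at 227.9, 344.7 and 371.6 CPM in young, 1206, 651 and 989.6 in vehicle and 493.2, 367 and 711 in ABT-737. All 3 vehicle libraries were above all 3 young ones, and the ABT-737 libraries overlapped both. The log2 fold change was 1.59 (SE 0.332, adjusted p = 0.0218, higher in 3 of 3 libraries) for vehicle against young, 0.73 (adjusted p = 0.165) for ABT-737 against young and -0.86 (adjusted p = 0.576) for ABT-737 against vehicle by edgeR. The call was lost without young 1 (adjusted p = 0.0928), young 2 (0.0813), young 3 (0.0508) or vehicle 5 (0.0607), in each case with a log2 fold change of at least 1.40. With the replicate number as a block the direction was the same (adjusted p = 0.953), and none of the genes tested was called. Only young 3 shares its number with old skin libraries, so this block cannot decide the call. Sebaceous gland genes summed to 120.1 to 252 CPM in young and 343.8 to 728.9 in vehicle, and 2 of 9 were called higher in vehicle, where 5.84% of all genes were. Their part in the level of Krt79 was not tested.

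Krt17, a type I keratin of the follicle, was at 882.7, 1269 and 1116 CPM in young, 2616, 1444 and 1969 in vehicle and 1544, 3330 and 3292 in ABT-737. Every old library was above every young one, and vehicle 3, ABT-737 4 and ABT-737 5 were the 3 highest. The log2 fold change was 0.88 (adjusted p = 0.115) for vehicle and 1.32 (SE 0.345, adjusted p = 0.0568) for ABT-737, both against young by edgeR. Krt75, the keratin of the companion layer between the sheaths, was at 269.2, 224.4 and 161.9 CPM in young, 214.4, 63.71 and 41.38 in vehicle and 121.7, 865.3 and 568 in ABT-737. Its log2 fold change was 2.29 (SE 0.749, adjusted p = 0.501) for ABT-737 against vehicle by edgeR, with ABT-737 4 and 5 above the rest and ABT-737 3 within it.

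Basal keratins of the epidermis were carried by every library. Krt5, the type II chain of the basal layer, was at 6200, 6232 and 4564 CPM in young, 3454, 3323 and 5539 in vehicle and 4199, 2102 and 3768 in ABT-737. All ABT-737 libraries were below all young ones, at log2 fold change -0.76 (SE 0.322, adjusted p = 0.153) by edgeR. Krt14, its type I partner, was at 3755, 3930 and 3142 CPM in young, 3565, 2758 and 11070 in vehicle and 3104, 2386 and 3742 in ABT-737. The log2 fold change of Krt14 was 0.68 (adjusted p = 0.341) for vehicle and -0.23 (adjusted p = 0.767) for ABT-737, each against young by edgeR. Krt15, a basal keratin of the follicle bulge and the epidermis, was at 6064, 6270 and 5206 CPM in young, 1958, 2989 and 573.5 in vehicle and 3738, 1428 and 1570 in ABT-737. No old library reached a young one, yet the log2 fold change of -1.67 (SE 0.564, adjusted p = 0.0817) for vehicle and -1.38 (SE 0.559, adjusted p = 0.137) for ABT-737, both against young, missed the threshold by edgeR. Krt15 was the 1 member below young in every library of both old groups.

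Suprabasal keratins were led by 1 library in vehicle. Krt1, the type II chain of the differentiating layers, was at 250.3, 301 and 487.6 CPM in young, 321.2, 298.3 and 3091 in vehicle and 202.4, 146.9 and 313.3 in ABT-737. Krt10, its type I partner, was at 1658, 3998 and 4637 CPM in young, 5009, 7506 and 9539 in vehicle and 5978, 2666 and 4181 in ABT-737. Vehicle was above young in every library for Krt10 and not for Krt1. The log2 fold change for vehicle against young was 1.84 (adjusted p = 0.163) for Krt1 and 1.10 (SE 0.438, adjusted p = 0.122) for Krt10, and for ABT-737 against vehicle it was -2.49 (adjusted p = 0.519) and -0.78 (adjusted p = 0.706), by edgeR. Over the 9 epidermal keratins tested the median log2 fold change was 0.57 for vehicle against young, with 6 higher and 3 lower, and -0.68 for ABT-737 against vehicle, with 2 higher and 7 lower. Krt9, of palm and sole skin, had at most 2 counts in any library.

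Simple-epithelium keratins were sparse in skin apart from Krt23. It was at 34.73, 98.4 and 128.7 CPM in young, 194.7, 274.8 and 103.5 in vehicle and 203.7, 205.6 and 254.8 in ABT-737. The ABT-737 libraries were all above the young ones, and vehicle 5 lay among the young. Its log2 fold change was 1.12 (SE 0.465, adjusted p = 0.133) for vehicle and 1.34 (adjusted p = 0.101) for ABT-737, both against young by edgeR. Krt18 was at 0.4548 to 2.894 CPM in young, 9.228, 2.491 and 1.655 in vehicle and 0.7784, 25.46 and 12.49 in ABT-737, with the same 3 libraries highest as for the hair members. Krt7 stayed between 1.726 and 5.003 CPM in all 9 libraries, and Krt8, Krt19 and Krt20 had too few counts to be tested. Krt24, the 1 member tested of the keratins of other sites, ranged from 18.48 to 49.2 CPM with no group apart.

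In kidney, liver and lung the hair members were at few counts or at 0. Of the 109 members listed, 88 were at 0 in all kidney libraries, 101 in all liver libraries and 77 in all lung libraries. Hair shaft keratins summed to 4.717 CPM at most in any of these 30 libraries. Keratin-associated proteins had no count in kidney and liver and summed to 2.618 to 11.59 CPM in lung. Most of that was Krtap17-1, with 3 to 12 counts in each lung library. It was at 4.884 to 7.649 CPM in young, 1.122 to 4.695 in vehicle and 3.22 to 7.376 in ABT-737, with log2 fold change -1.22 (SE 0.513, adjusted p = 0.128) for vehicle against young by edgeR, and was described after its values were seen. The members tested were mainly the paired keratins of single-layered epithelia.

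Krt18, the type I chain that hepatocytes pair with Krt8, rose in liver between young and vehicle. It was at 350.5, 323.4, 294.9 and 260.9 CPM in young 1 to 4, at 628.4, 557.2 and 427.7 in vehicle 3 to 5 and at 384.4, 261.8 and 359.0 in ABT-737 3 to 5. Vehicle stood above both other groups in every library, and ABT-737 overlapped young. The mean was 307.4 CPM in young (n = 4), 537.8 in vehicle (n = 3) and 335.0 in ABT-737 (n = 3), with log2 fold change 0.80 (SE 0.221, adjusted p = 0.0166, higher in 3 of 3 libraries) for vehicle against young by edgeR. It was the 1 member called of the 2 tested, where 22.6% of all genes in liver were called. Against vehicle, ABT-737 gave -0.68 (SE 0.242, adjusted p = 0.147), with 0 members and 3.85% of all genes called, and against young 0.12 (adjusted p = 0.790), with 0 members and 8.4% of all genes called. At an unadjusted p under 0.05 these comparisons had 1 and 0 members, against 16.1% and 23.9% of all genes, and DESeq2 called 0 in both. The call for vehicle against young was lost without young 3 (adjusted p = 0.0510) or young 4 (0.0700), with no filter on low counts (0.0622, log2 fold change 0.70) and with the replicate block (0.0951, log2 fold change 0.99). Krt8 was at 40.66, 80.47, 62.97 and 67.14 CPM in young, 109.1, 86.62 and 78.34 in vehicle and 79.26, 53.11 and 91.6 in ABT-737, with log2 fold change 0.49 (SE 0.265, adjusted p = 0.204) for vehicle against young, and its groups overlapped. Biliary epithelial markers summed to 65.46, 351.2 and 173.4 CPM in the vehicle libraries and to 98.36 to 133.6 in the young ones. Leukocyte markers summed to 2007, 1359 and 1089 CPM in vehicle 3 to 5, against 149.1 to 224.4 in young and 138.5 to 255 in ABT-737, so vehicle stood above both other groups, as for Krt18, with the same order of its libraries. Liver identity markers summed to 42010 CPM in vehicle 3 and to 57560 to 75030 in the other 9 libraries. The part of these cell types in the level of Krt18 was not tested. Vehicle 3 of liver was the library with 223957 counts.

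In kidney 0 of the 7 members tested were called by edgeR in any comparison, where 1.35% of all genes were called between ABT-737 and vehicle, 13.3% between vehicle and young and 2.12% between ABT-737 and young. At an unadjusted p under 0.05 there were 0, 1 and 1 members, against 14.8%, 28% and 16.7% of all genes, and DESeq2 called 0 in each. Krt18 was at 33.88, 43.00, 40.40 and 32.31 CPM in young, 50.26, 72.51 and 41.32 in vehicle and 52.91, 46.02 and 48.28 in ABT-737. Young and ABT-737 did not overlap, while vehicle 5 lay among the young. Its log2 fold change was 0.52 (SE 0.187, adjusted p = 0.0773) for vehicle and 0.38 (adjusted p = 0.323) for ABT-737, both against young by edgeR, and without vehicle 5 the first was called. Krt7, of the collecting duct and other ducts, was at 121.0 to 174.0 CPM in young, 115.0 to 160.1 in vehicle and 91.06 to 132.9 in ABT-737, with log2 fold change -0.43 (SE 0.175, adjusted p = 0.228) for ABT-737 against young. Krt8 ranged from 29.69 to 54.47 CPM and Krt19 from 4.949 to 14.09 over the 10 kidney libraries, with all groups overlapping.

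In lung 0 of the 8 members tested were called, where 0% of all genes were called between ABT-737 and vehicle, 12.9% between vehicle and young and 2.55% between ABT-737 and young. DESeq2 called 1, Krt23 between vehicle and young, against 16.9% of all genes. At an unadjusted p under 0.05 there were 0, 3 and 1 members in these comparisons, against 16.1%, 29.8% and 20.5% of all genes. Krt23 was at 18.64, 27.12, 22.79 and 20.79 CPM in young, 12.74, 11.15 and 8.977 in vehicle and 21.25, 11.59 and 8.053 in ABT-737. All vehicle libraries were below all young ones, and ABT-737 3 was among the young. The log2 fold change was -1.03 (SE 0.351, adjusted p = 0.0675) for vehicle against young by edgeR, called without ABT-737 3 or ABT-737 5. Krt7, of bronchial and alveolar epithelium, was at 611.6, 643.2, 630.6 and 439.3 CPM in young, 343.4, 446.0 and 124.6 in vehicle and 672.4, 566.9 and 227.3 in ABT-737. Krt19, of the airway, was at 261.4, 260.8, 214.9 and 255.2 CPM in young, 209.3, 217.4 and 118.6 in vehicle and 306.6, 339.3 and 171.8 in ABT-737. Vehicle 5 and ABT-737 5 were the 2 lowest lung libraries in both genes, and airway and alveolar epithelial markers were also lowest in these libraries, at 26440 and 35300 CPM against 43270 to 61800. Their part in the keratin levels was not tested. For vehicle against young the log2 fold change was -0.93 (SE 0.432, adjusted p = 0.165) for Krt7 and -0.45 (adjusted p = 0.336) for Krt19 by edgeR. Krt79 was at 31.29 to 40.03 CPM in young, 19.08 to 61.33 in vehicle and 25.50 to 101.2 in ABT-737, with a log2 fold change of 0.14 (adjusted p = 0.859) for vehicle against young, and its effect was not tested against that in skin. With same-numbered lung libraries taken as pairs, ABT-737 was above vehicle in 2 of 3 pairs for Krt8, Krt18, Krt23 and Krtap17-1. For Krt10 it was above in 1 of 3 pairs, and for Krt7, Krt19 and Krt79 in 3 of 3. Their log2 fold changes for ABT-737 against vehicle with this block were 0.71 (adjusted p = 0.235), 0.58 (adjusted p = 0.287) and 0.77 (adjusted p = 0.187) by edgeR, against 0.68 (adjusted p = 0.478), 0.58 (adjusted p = 0.386) and 0.81 (adjusted p = 0.402) without it. None of the 3 was called either way, and 99 of the 11949 genes tested were called with the block.

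**Figure D5:**
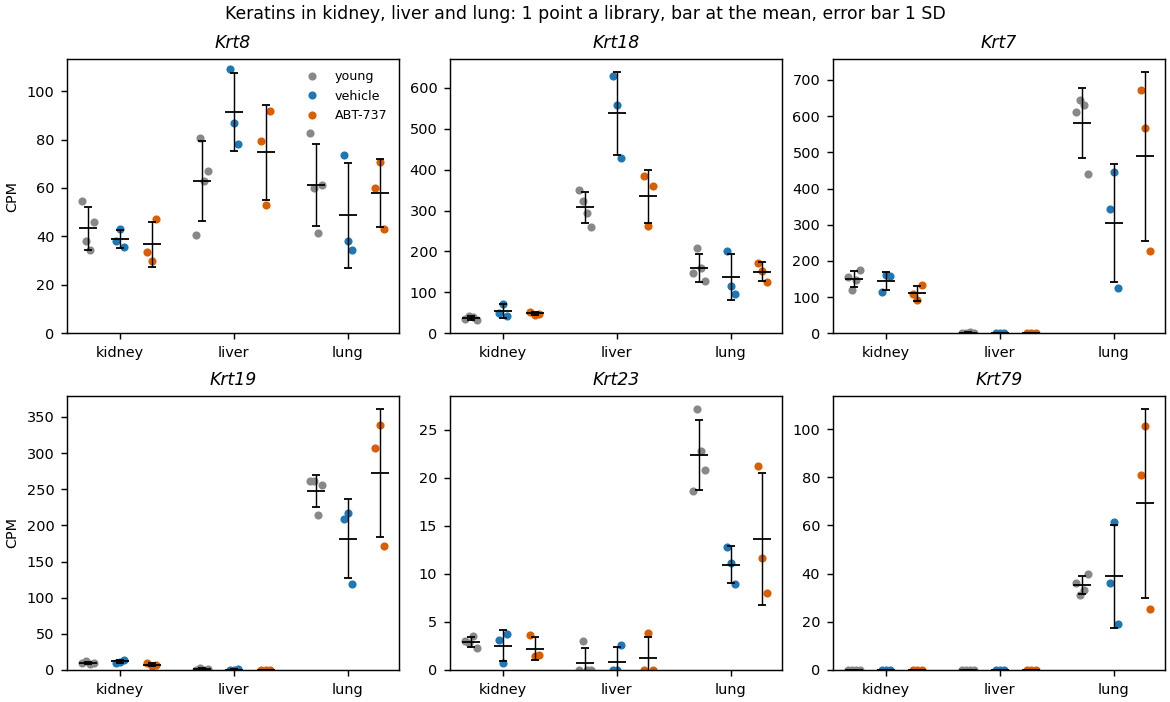
CPM of Krt8, Krt18, Krt7, Krt19, Krt23 and Krt79 in kidney, liver and lung, 1 point a library, with the group mean as a bar and 1 SD as the error bar. Krt18 of liver has its 3 vehicle points, 427.7 to 628.4 CPM, above the other 2 groups, and Krt23 of lung has its 3 vehicle points below the 4 young ones.

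Whether the effects differed among kidney, liver and lung was tested by an interaction term, and 8 members entered it. Krt79 and Krtap17-1 had counts in lung alone, so the test could not call them. Of the other 6, 0 were called by edgeR for either contrast, where 13.9% of all genes were called for vehicle against young and 0.0992% for ABT-737 against vehicle. In liver, Krt7, Krt19 and Krt23 had at most 2 counts in a library and Krt10 at most 5. For these members the test says little about the effect in liver. At an unadjusted p under 0.05 each contrast had 1 member, Krt18 for vehicle against young (28.5% of all genes) and Krt19 for ABT-737 against vehicle (11.9%). Krt18 had an adjusted p = 0.0697 for the first contrast, with log2 fold changes of 0.52 in kidney, 0.80 in liver and -0.23 in lung. Skin was counted in a table of its own and did not enter this test.

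Between young tissues, of the 7 members tested by edgeR, 5 were called between kidney and liver (51.5% of all genes were), 6 between kidney and lung (74.7%) and 6 between liver and lung (69.4%), so over so few members the shares were near those of all genes. Krt79 passed the filter through lung alone. Krt18 was at 33.38 ± 4.931 CPM in kidney, 425.2 ± 54.41 in liver and 128.5 ± 27.38 in lung (SD, n = 4 each), on a scaling of the 3 tissues together. It was 12.61-fold lower in kidney than in liver and 3.321-fold higher in liver than in lung. Krt8 was at 38.55 ± 7.585 CPM in kidney, 87.01 ± 23.72 in liver and 49.07 ± 13.59 in lung, where kidney and lung did not differ beyond their spread (adjusted p = 0.0763) by edgeR. Its difference between liver and lung, a log2 fold change of 0.84, was lost with library size alone as the scaling (0.05, adjusted p = 0.844), a choice that moved the median of all genes from -0.33 to -1.10. Krt19 was at 8.702 ± 1.773 CPM in kidney and 198.6 ± 18.1 in lung, 22.46-fold apart, and at 0 to 4.19 CPM in liver, no more than 2 counts a library. Krt7 was at 132.7 ± 18.4 CPM in kidney and 464.9 ± 75.13 in lung and at 0 to 4.293 CPM in liver, again no more than 2 counts, so kidney was at least 18.63-fold and lung at least 65.26-fold above the liver floor. Krt79 had counts in every lung library, at 28.16 ± 3.152 CPM, and 0 in every young kidney and liver library, so lung was at least 28.92-fold above the kidney floor and at least 3.953-fold above that of the shallower liver libraries. Krt23 was at 17.88 ± 2.895 CPM in lung and 2.582 ± 0.4582 in kidney, 6.613-fold apart, and had counts in 1 of 4 liver libraries.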

How the data were processed

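Bulk tissue of 39 libraries was measured with a 3′-end method derived from MARS-seq. Per the labels and the submitters' processing notes, reads were split with bcl2fastq, aligned with HISAT 0.1.5 to mm10 and counted with HOMER, and the authors deposited whole-number counts per gene, not normalized, in 1 table for skin and 1 for kidney, liver and lung. How overlapping or repeated sequence was counted is not given in the sources used here. In mm10, 23 of the 112 skin members have a counted window that overlaps another gene.

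Symbols were read from the tables. For each tissue all 3 groups entered 1 fit in edgeR 4.0.16 (R 4.3.3): TMM scaling, the filter on low counts by group, the quasi-likelihood test, and Benjamini-Hochberg adjustment over all genes. Wald tests of DESeq2 1.42.0, other scalings, filters, samples and a replicate block were alternatives. The 3 tissues of the second table also gave tests between young tissues and of interaction. The script was tested on simulated data. The biological coefficient of variation was 34.9% in skin, 16.5% in kidney, 23.5% in liver and 31.7% in lung. Floors of 3 counts cover counting error only, and p-values measure only the spread between these libraries. No 2 libraries agreed within sampling noise.

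In lung the deviations of same-numbered vehicle and ABT-737 libraries had correlations of 0.176, 0.296 and 0.427. Those of unlike-numbered lung libraries ran from -0.572 to 0.303. In the other tissues same-numbered libraries ran from -0.577 to 0.276. In lung the numbers were taken as pairs as an alternative, although the labels give no pairing and an unlike-numbered pair reached 0.303. There the block changed no call of a member, though it did change calls among all genes tested.

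Members, member groups and lists of other genes (hair matrix, melanocyte, proliferation, telogen, muscle, leukocyte, cornified envelope, sebaceous, biliary and airway genes) were chosen with earlier results of these data known. Members qualified to be named if they had the highest mean CPM of their group in skin, the largest or smallest fold change, or a call. In other tissues they qualified as simple-epithelium keratins or with a mean of at least 5 CPM. Not all of them are given with values. In skin these are Krtap14, Krtap2-4 and Krtap4-2, with the highest fold changes of ABT-737 against vehicle, and Krtap11-1, Krtap19-3 and Krtap9-3, among the highest in mean CPM. Some members of kidney, liver and lung, such as Krt10, are also left out. Promoter letters came from RefSeq windows on GRCm38.p6. Figures were drawn with matplotlib 3.10.9.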

Additional observations from a re-analysis of the deposited data

Results flagged for a closer look

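Among 24 groups of 4 young libraries looked at, 3 had a library whose gap to its nearest neighbour took more of the group's range than the critical value of Dixon's test, which chance exceeds in about 1 of 20 groups. Krt23 in young liver had 0, 2, 0 and 0 counts, so the gap of young 2 took the whole range (1.0) and rests on 2 counts. Krt19 in young lung was at 261.4, 260.8, 214.9 and 255.2 CPM, and young 3 was lowest with a gap of 0.867 of the range. Krt7 in young lung was at 611.6, 643.2, 630.6 and 439.3 CPM, and young 4 was lowest with a gap of 0.845 of the range. The skin groups have 3 libraries each and were not looked at in this way. Among 36 pairs of skin with another tissue, none had all libraries of the one above and all of the other below their comparison group.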

How the results depend on the processing

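Counts of members called moved as follows. Between vehicle and young in liver there were 0 with no filter on low counts and 0 with the replicate block, against 1, and Krt18 there had an adjusted p of 0.0622 and 0.0951, with 0.00934 to 0.0951 over its 16 alternatives. Lung had 1 for vehicle against young with DESeq2 (16.9% of all genes) and 1 with only the 2 groups compared. It also had 1 for ABT-737 against young with no filter. Each of these stood against 0. Skin, against 1 for vehicle and young, had 22 with DESeq2, 33 with no filter (7.95% of all genes), 0 with the replicate block, 2 without vehicle 3 and ABT-737 4 and 5 (Krt75 and Krt79) and 4 also without vehicle 5 (Krt15, Krt23, Krt75 and Krt79), the last 2 being alternatives chosen after seeing the data. Krt79 had an adjusted p of 0.953 with the block and from 8.61e-05 to 0.953 over its 15 alternatives. In skin the block compares only young 3 with old libraries, so it cannot decide this call. Against 0 for ABT-737 and young, skin had 58 with DESeq2, 74 with no filter (5.74% of all genes), 2 with at least 10 counts in every library (Krt17 and Krtap3-2, over the 17 members left) and 2 with only the 2 groups compared (Krt32 and Krtap3-2). Young kidney and lung differed in 13 members with no filter, against 6. Where no share of all genes stands beside a count, the count shows only how it moved with the processing. Such a count is not a result about the members. Krt10 between young kidney and liver was lost without liver young 2 (adjusted p = 0.0553). The cause of these shifts was not tested.

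Leaving out 1 library at a time gave 0 to 1 members for vehicle against young in kidney, liver and lung. In skin it gave 0 to 11 members for vehicle against young and 0 to 73 for ABT-737 against young. For the difference of the vehicle against young effect among tissues it gave 0 to 1, and Krt18 was called without lung vehicle 3. Medians in skin then ran, for ABT-737 against vehicle, from -0.96 to -0.29 over epidermal and from -1.82 to 0.45 over injury-inducible and follicle keratins, and from 1.76 to 5.61, 1.40 to 5.14 and 2.05 to 5.46 over hair shaft keratins, inner root sheath keratins and keratin-associated proteins. For vehicle against young they ran from -0.16 to 0.83 over epidermal keratins and from 2.10 to 7.34, 2.61 to 8.29 and 2.08 to 7.08 over the 3 hair groups, and for ABT-737 against young from -0.77 to -0.16 over epidermal keratins. The lowest vehicle against young medians of the hair groups were those without vehicle 3.

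Without vehicle 3 and ABT-737 4 and 5, the medians over hair shaft keratins, inner root sheath keratins and keratin-associated proteins were -3.27, -3.99 and -3.38 for ABT-737 against vehicle, 2.07, 2.67 and 2.04 for vehicle against young and -1.29, -1.12 and -1.50 for ABT-737 against young. The last comparison gave -0.20 over injury-inducible and follicle keratins and 0.71 over simple-epithelium keratins, and ABT-737 against vehicle gave 0.46 over other keratins. With the replicate block, vehicle against young gave -0.046 over epidermal keratins, 8.47 over inner root sheath keratins, 8.04 over keratin-associated proteins, 0.52 over other keratins and 0.48 over simple-epithelium keratins. ABT-737 against young then gave 12.40, 12.77 and 12.34 over the 3 hair groups, 0.37 over injury-inducible and follicle keratins, 0.50 over other keratins and 0.79 over simple-epithelium keratins. In skin the young libraries share only number 3 with the old ones. Same-numbered vehicle and ABT-737 libraries had correlations of -0.175, -0.21 and 0.0196 in kidney, -0.0442, 0.16 and -0.0227 in liver and -0.574, -0.577 and 0.276 in skin. Young tissues had -0.0166 to 0.059. The labels do not say whether these libraries share more than a number. The block changed no other call of a member.

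With the 50 most counted genes left out, the mean share of counts taken by members was 0.03296%, 0.03373% and 0.02789% in kidney (young, vehicle, ABT-737). It was 0.05828%, 0.09862% and 0.06358% in liver, 0.1359% in young and 0.1331% in ABT-737 lung, and 0.3523% in young and 1.581% in vehicle skin. Lung vehicle 3 to 5 were at 0.1221%, 0.1123% and 0.05196%, and skin ABT-737 3 to 5 at 0.3461%, 5.426% and 6.279%. In skin the genes left out included members. With all genes counted, members took 1.988% to 2.465% in young skin, 2.127% to 5.512% in vehicle and 2.193% to 8.013% in ABT-737. Depth limits liver most, where the shallowest library held 223957 counts and 2 members could be tested.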
